A study of Mus musculus with 24 samples.

Results

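The genes described here are the 9 laminin chains Lama1, Lama2, Lama3, Lama4, Lama5, Lamb1, Lamb2, Lamb3 and Lamc1, and they were chosen by name, not by their values. Of the 18539 gene symbols with a probe on the arrays, 8 were members of this family, read by 11 probes that were matched through the RefSeq accession in the array files. Lamc1, the gamma chain shared by most vascular laminins, had no probe matched by accession and was not analysed here. RNA came from live CD105+/CD45- endothelial cells that were sorted from the aorta and the leg skeletal muscle of male mice, and each of the 24 one-colour Agilent arrays carried the pooled cells of 3 mice by the methods, or 3 to 4 by the deposited description. Wild-type C57BL/6J mice (WT) and mice with a germline deletion in Lgals3, the gene of galectin-3 (Lgals3 -/-, B6.Cg-Lgals3tm1Poi/J, KO), received a high-fat diet with 60% of calories from fat (HFD) or chow with 12% from 8 weeks of age for 8 weeks. Each combination of tissue, strain and diet was read in 3 independent experiments, which gave 8 groups of 3 arrays. The deletion was present in every cell of the KO mice, and both strains received both diets.

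Laminins are heterotrimers of an alpha, a beta and a gamma chain, and they are the scaffold onto which the basement membrane of a vessel is built. The alpha chain carries the globular domains that bind integrins and dystroglycan on the cell, and the gamma chain carries the site for nidogen. Endothelial basement membranes are known for trimers with the Lama4 or the Lama5 chain, while Lama2 is the alpha chain of muscle fibres, Schwann cells and mesenchymal cells, Lama1 is mainly embryonic and epithelial, and Lama3 and Lamb3 pair in the laminin of epithelia.

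Values are log2 of the ratio between a probe's processed signal and the 75th percentile of the array, so that a level of 0 equals that percentile, and probes of different genes cannot be set against each other on this scale. The 75th percentile lay between 2390 and 5938 intensity units, and 59.5% to 75.7% of spots carried the mark well above background, which the scanner software gives to spots brighter than their surroundings. All 8 markers on an endothelial list (Pecam1, Cdh5, Tek, Kdr, Eng, Vwf, Tie1 and Emcn) were well above background on every array. Their summed level lay between 6.57 and 8.05 in aortic endothelium and between 8.03 and 8.56 in muscle endothelium. Markers of other cells were also read, and their levels stand beside the results they moved with. A summed level adds the signals before the log2 step, so the brightest genes of a list set it and its other genes can differ in the opposite direction. In sorted cells from bulk RNA, fewer cells of a type and less RNA per cell cannot be told apart.

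The probe of the targeted gene did not read lower on arrays labelled KO. The Lgals3 probe was well above background on all 24 arrays, and its value in the KO-labelled member of a pair was the higher one in 5 of 6 aortic and 6 of 6 muscle pairs. KO minus WT was 1.54 ± 0.42 (log2, SE) in aortic endothelium (limma, adjusted p = 0.846) and 1.02 ± 0.30 in muscle endothelium (adjusted p = 1). The position of the probe against the deletion was not analysed, so this reading cannot check the labels. The one opposite pair was the HFD pair of experiment 1 in aorta, where the array labelled KO read 2.40 and the array labelled WT read 3.20. All strains below are those of the labels, and the strain differences are also given without experiment 1.

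Lama5, Lamb1 and Lamb2 are shown with the bases that lie before their annotated start, because Lama5 differed between the tissues, Lamb2 did not pass that test, and Lamb1 had the largest value for diet in muscle. Sequences are from RefSeq (GRCm38.p6), written 5′ to 3′ in the direction of the gene, and capitals mark matches to GGGCGG, the core of the GC box, on either strand.
Lama5, chr2:180225905-180226109, minus strand: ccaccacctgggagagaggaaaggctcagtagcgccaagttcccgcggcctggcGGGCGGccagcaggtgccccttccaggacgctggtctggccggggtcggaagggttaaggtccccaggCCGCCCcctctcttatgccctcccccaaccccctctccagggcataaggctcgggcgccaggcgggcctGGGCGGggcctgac
Lamb1, chr12:31265043-31265145, plus strand: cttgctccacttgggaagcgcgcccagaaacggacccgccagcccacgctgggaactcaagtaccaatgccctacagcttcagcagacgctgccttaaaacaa
Lamb2, chr9:108479612-108479846, plus strand: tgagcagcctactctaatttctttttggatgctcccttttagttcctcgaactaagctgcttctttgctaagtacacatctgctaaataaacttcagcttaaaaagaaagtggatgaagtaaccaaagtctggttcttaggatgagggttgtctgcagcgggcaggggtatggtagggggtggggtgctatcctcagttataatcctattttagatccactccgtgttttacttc
The Lama5 stretch of 205 bases was 71.7% G or C and held 3 matches. Of the 32851 promoter windows of the table, 25.6% held at least 1 in their first 205 bases. These shares, here and below, take the first bases of each window, which need not end at that gene's annotated start. The Lamb1 stretch of 103 bases (58.3% G or C) and the Lamb2 stretch of 235 bases (43% G or C) held none, against 10.8% and 30.6% of windows of those lengths. None of the 3 stretches held a TATA box, spelled TATAAA and found in 9.33%, 5.38% and 11.9% of windows of the lengths used for Lama5, Lamb1 and Lamb2. One other annotated gene overlapped the Lama5 stretch and 1 overlapped the Lamb1 stretch. These matches describe the letters and not bound sites.

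**Figure D1:**
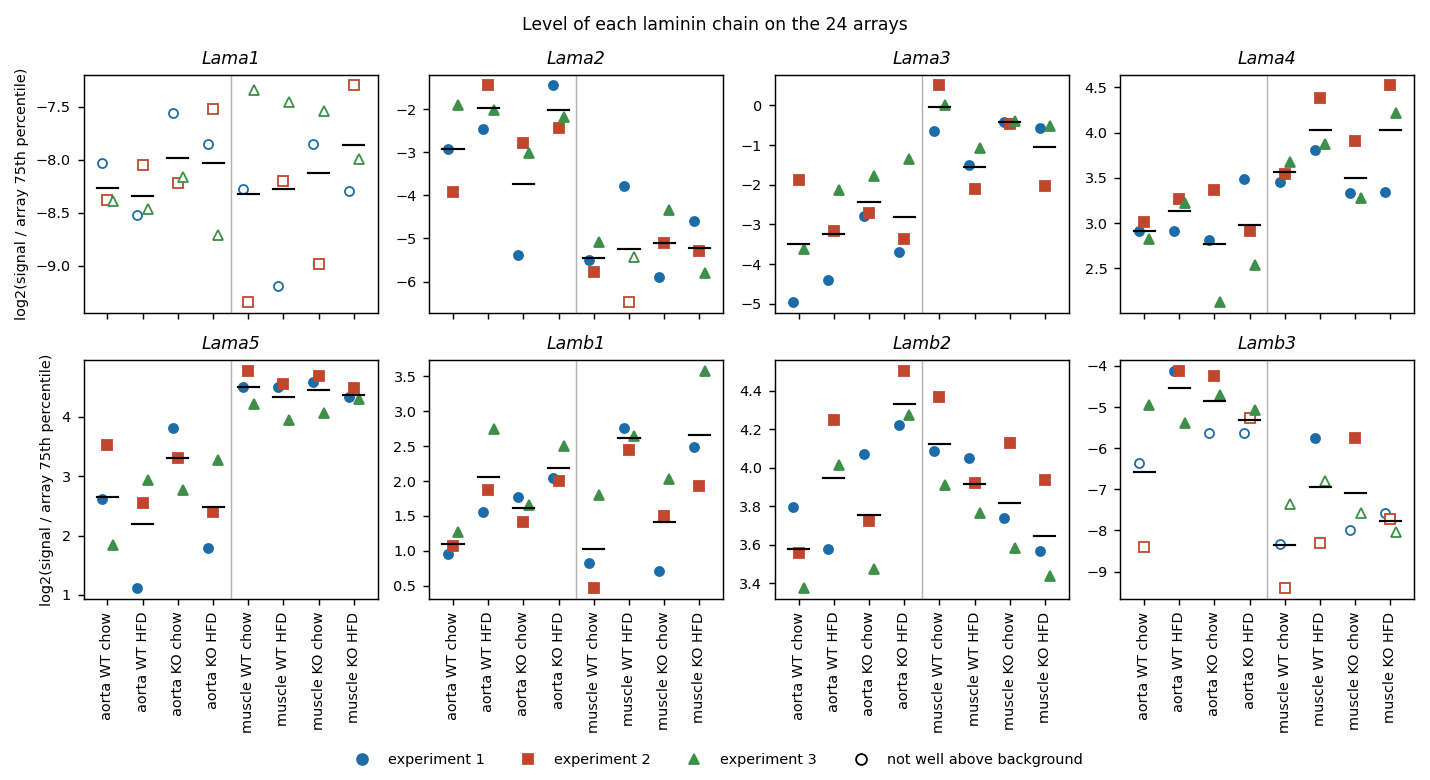
Level of each laminin chain with a probe, as log2 of the signal over the array's 75th percentile, on the 24 arrays (3 per group, symbols for the experiments, bars for group means, open symbols for arrays where the probe was not well above background). Lama5 and Lama3 were higher and Lama2 and Lamb3 lower on the muscle arrays, the Lamb1 group means lay higher on HFD than on chow in both tissues and strains, and Lama1 was not well above background on any array.

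Most laminin chains differed between the tissues. Of the 7 chains tested between aortic and muscle endothelium, 2 were higher in aorta (Lama2 and Lamb3), 3 were lower (Lama3, Lama4 and Lama5) and 2 did not pass the test (Lamb1 and Lamb2) at an adjusted p under 0.05 in limma, with Benjamini-Hochberg adjustment over 27387 probes. Over all probes tested, 46.1% passed, 16.0% higher and 30.1% lower in aorta, and the median difference over all of them was -0.27. The median over the 7 chains was -0.19. Lamb3 entered the test through 1 aortic group alone, WT HFD, the only group with all 3 arrays well above background, so it was tested only through the side on which it was high. The count of chains called therefore includes 1 that the filter favoured. The tissue fit took the arrays as independent, although each slide held arrays of 1 tissue and 1 experiment. Its p values, here and below, can therefore be too small.

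Lama5, the alpha chain of adult vessels that is bound by integrins and by the adhesion molecule Bcam, was lower in aorta. Its level (probe A_51_P411061) had a low of 1.12, a median of 2.69 and a high of 3.81 on the 12 aortic arrays, and a low of 3.95, a median of 4.49 and a high of 4.77 on the 12 muscle arrays. The groups did not overlap, and the muscle arrays lay closer together (SD 0.25) than the aortic arrays (SD 0.79). The share of all probes that separated the tissues like this, or kept 1 sign in all 12 pools, was not counted. The difference of aorta minus muscle was -1.75 ± 0.24 (SE), a level 3.37-fold lower in aorta, with an adjusted p = 7.67e-06, and it was below 0 in all 12 pools of mice. Within experiments 1, 2 and 3 it was -2.15, -1.68 and -1.43. The summed level of the endothelial list was also lower in aorta in all 12 pools, by a mean difference of -0.83 ± 0.46 (SD), and its part in the Lama5 result was not tested.

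Lama4, the other alpha chain of endothelial basement membranes, was lower in aorta by a smaller amount. On its brightest probe (A_51_P212420) the aortic arrays ran from 2.13 over a median of 2.92 to 3.49, and the muscle arrays from 3.28 over a median of 3.75 to 4.52. The groups overlapped between 3.28 and 3.49. The difference was -0.83 ± 0.17 (SE), 1.78-fold, with an adjusted p = 0.00058, and only 1 of 12 pools was above 0. It was -0.45 within experiment 1, -0.95 within experiment 2 and -1.08 within experiment 3. The 2 dimmer Lama4 probes gave differences of -0.85 and -1.23, and their Pearson correlations with the brightest over the 24 arrays were 0.99 and 0.66.

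Lama2, the alpha chain whose loss causes muscular dystrophy, was higher in aorta. Its level (probe A_52_P652859) ran from -5.38 over a median of -2.45 to -1.45 on the aortic arrays and from -6.48 over a median of -5.36 to -3.78 on the muscle arrays. The groups overlapped through 2 aortic arrays, KO chow of experiment 1 at -5.38 and WT chow of experiment 2 at -3.92, which lay below the highest muscle array. The probe was well above background on all 12 aortic and on 10 muscle arrays, the WT HFD muscle group having 1 such array of 3. The difference was 2.60 ± 0.35 (SE), a level 6.05-fold higher in aorta, with an adjusted p = 7.8e-06, and it was above 0 in 12 of 12 pools. Within experiments 1, 2 and 3 it was 1.89, 3.01 and 2.89.

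The summed levels of marker lists for other cell types differed in the same comparison. All 6 markers on a fibroblast list (Pdgfra, Col1a1, Col1a2, Dcn, Lum and Dpt) were well above background on every aortic array, and 5 or 6 on each muscle array. Their summed level lay between 7.81 and 8.99 in aorta and between 4.10 and 7.32 in muscle, without overlap. The summed level of a Schwann cell list was higher in aorta in all 12 pools, by 1.30 ± 0.53 (SD), but of its 6 genes only Pmp22 was above 0 (1.56) and called higher, 3 were called lower and the median was -0.66. Pmp22 was named after its value had been seen. A lymphatic endothelial list was higher in aorta by 3.58 ± 2.03 in all 12 pools, and an adipocyte list by 1.89 ± 1.82 in 10 of 12. The single genes of these lists and of those that follow are not given here, so a list value need not hold for each gene. A skeletal muscle fibre list was lower in aorta in all 12, by a difference of -4.22 ± 1.45, while smooth muscle and pericyte lists differed by -0.40 ± 0.40 and -0.44 ± 0.65. A satellite cell list differed by -1.89 ± 1.27, and macrophage, epithelial and mesothelial lists by 0.50 ± 0.91, 1.40 ± 1.48 and 1.10 ± 1.46. Capillary and arterial endothelial lists were lower in aorta in all 12 pools, by -0.79 ± 0.40 and -0.99 ± 0.49. The part of these cells in the differences of the laminin chains was not tested.

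Lama3 and Lamb3, which form the alpha and the beta chain of the epithelial trimer, differed in opposite directions. Lama3 (probe A_51_P167489) ran from -4.96 over a median of -2.99 to -1.35 in aorta and from -2.10 over a median of -0.55 to 0.50 in muscle. The difference was -2.22 ± 0.36 (SE), a level 4.66-fold lower in aorta, with an adjusted p = 5.96e-05 and 0 of 12 pools above 0. A second, dimmer Lama3 probe gave -0.44 with an adjusted p = 0.174 and correlated with the first at 0.15 over 24 arrays, so that the Lama3 result rests on 1 of its 2 probes. Lamb3 (probe A_51_P223656) was close to background, being well above it on 7 aortic and 2 muscle arrays. Its mean was -5.32 in aorta and -7.55 in muscle, a measured difference of 2.22 ± 0.39 (SE) with an adjusted p = 0.000142, above 0 in 12 of 12 pools. Each muscle array that was not well above background was then raised to the lowest signal that was on that array. The aortic mean of Lamb3 was 1.55-fold higher after this step. The aortic arrays were left as read, with only 7 of them well above background, so 1.55-fold is not a lower bound. For WT chow alone, where 1 aortic and 0 muscle arrays read it, no fold can be given. Of 6 epithelial markers, the keratins Krt5, Krt14 and Krt18 were well above background on all 24 arrays, Krt8 on 10 aortic and 6 muscle arrays, the adhesion gene Cdh1 on 0 and 3, and Epcam on none. The summed level of this list lay between -0.22 and 2.58 in aorta and between -0.80 and 2.03 in muscle, and its part in the values of Lama3 and Lamb3 was not tested.

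**Figure D2:**
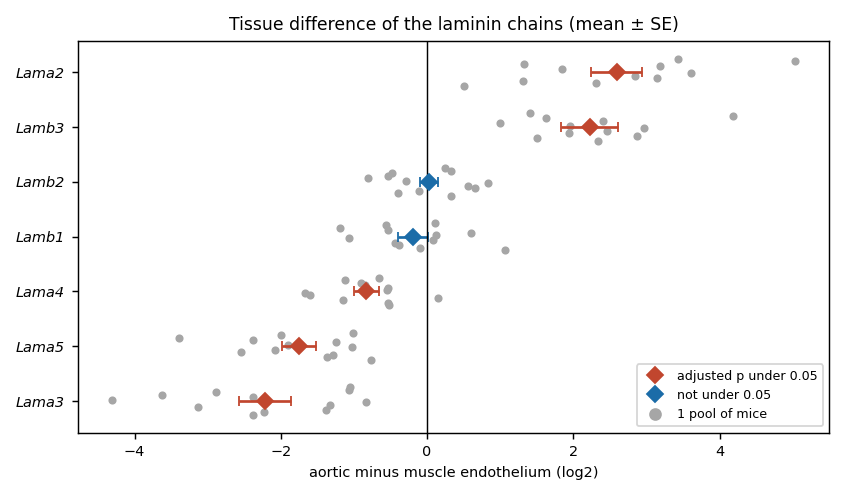
Aortic minus muscle endothelium (log2) for the 7 laminin chains tested, with the limma mean and SE as diamonds and the 12 pools of mice as grey points. Lama2 and Lamb3 lay above 0 and Lama3 and Lama5 below 0 in all 12 pools, while Lamb1 and Lamb2 scattered around 0.

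The beta chains known to pair with Lama4 and Lama5 did not pass the test between the tissues. Lamb2 (probe A_51_P248044), a beta chain of mature vessels and of synapses, had a median of 3.91 in aorta (from 3.38 to 4.50) and 3.92 in muscle (from 3.44 to 4.37). Its difference was 0.03 ± 0.12 (SE), adjusted p = 0.857, with a 95% interval from -0.23 to 0.28 and 6 of 12 pools above 0. This mean joins Lamb2 differences of opposite sign, and its interval does not bound each combination of strain and diet. In the same fit the difference was -0.54 in WT chow, -0.06 in KO chow, 0.03 in WT HFD and 0.69 in KO HFD. None passed in limma, with adjusted p = 0.143 in WT chow and 0.062 in KO HFD (unadjusted 0.0383 and 0.0113). Lamb1 (probe A_51_P244287), the beta chain of most embryonic and many adult basement membranes, had a median of 1.71 in aorta (from 0.95 to 2.75) and 1.98 in muscle (from 0.47 to 3.57). Its difference was -0.19 ± 0.21 (SE), adjusted p = 0.467, with an interval from -0.63 to 0.25 and 5 of 12 pools above 0. Lama1 (probe A_51_P188108) was not well above background on any of the 24 arrays and was not tested, its signals lying between -9.35 and -7.30.

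Within the 4 combinations of strain and diet, taken from the same fit with 3 arrays against 3, the chains kept their signs for Lama2, Lama3, Lama4, Lama5 and Lamb3. In KO HFD 4 chains passed (Lama2, Lama4, Lama5 and Lamb3, where 16.3% of all probes passed), although Lamb3 was well above background there on 1 aortic and 0 muscle arrays. In WT HFD 3 passed (Lama2, Lama5 and Lamb3, 16.7%). Aortic WT HFD was the only group that brought Lamb3 into the test, so the filter favoured its call there. In WT chow 3 passed (Lama2, Lama3 and Lama5, 15.5%). In KO chow 0 of 7 passed (6.40%), and 4 chains had an unadjusted p under 0.05, as did 20.3% of all probes. Lama2 differed by 3.26 in WT HFD, where 1 of 3 muscle arrays was well above background and the difference was 3.13 with the others raised to the lowest such signal, and by 3.20 in KO HFD, 2.54 in WT chow and 1.38 in KO chow. Lama5 differed by -2.14, -1.88, -1.84 and -1.15 in the same order. Whether the 4 combinations differ from each other was tested only as the diet response across tissues.

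Genes that bind laminin were read in the same comparison, in which 46.1% of all probes passed (16.0% higher and 30.1% lower in aorta). Of 12 laminin receptors, 3 were higher and 6 lower. Sdc2 and Sdc4, syndecans that carry heparan sulphate on the cell surface, were higher by 2.78 ± 0.25 (SE, adjusted p = 4.92e-08) and 2.10 ± 0.46 (0.00108). The integrin alpha chain Itga6 was lower at -2.42 ± 0.27 (8.62e-07), and so was Bcam, the receptor for the Lama5 chain, at -2.21 ± 0.28 (3.81e-06).

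Of 12 basement membrane partners, 4 were higher in aorta and 6 lower. Fbln1, a fibulin of the matrix, was higher by 7.45 ± 0.75 (SE, adjusted p = 2.28e-07), and Col18a1, the source of endostatin, by 2.18 ± 0.20 (8.61e-08). Ntn4, a laminin-related netrin and 1 of the 4, had a measured difference of 1.66 ± 0.47 (0.0075). Its probe was well above background on 8 aortic and 2 muscle arrays, so no muscle group had it on all 3 arrays. Ntn4 was therefore tested only through the side on which it was high. With the dim muscle arrays raised to the lowest signal well above background, its mean was 1.04-fold higher in aorta. The dim aortic arrays were left as read, so this is not a lower bound. Col4a2, a chain of the main type IV collagen, was lower at -1.53 ± 0.19 (3.04e-06). Of 9 genes of the dystrophin-linked complex that ties laminin to the cytoskeleton, 5 were higher and 2 lower. The sarcoglycan Sgcd was higher by a measured 6.08 ± 0.35 (2.98e-10). Its probe was well above background on 12 aortic and 5 muscle arrays. With the dim muscle arrays raised in the same way, Sgcd was at least 38.5-fold higher. The sarcoglycan Sgca was lower at -2.53 ± 0.55 (0.00103). Sspn, which codes for sarcospan, was higher by 1.84 ± 0.22 (1.98e-06). The medians of the 3 lists were -0.40, -0.30 and 0.76, against -0.27 over all probes. Lamc3, a gamma chain outside the family list, was lower on its brighter probe (-1.02 ± 0.15) but higher on its dimmer one (measured 2.32 ± 0.32, with no muscle array well above background), so no direction can be given for it.

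The next question was whether HFD changed the laminin chains, and it was asked as HFD minus chow within each strain and experiment. In aortic endothelium 0 of 7 chains passed in limma over both strains (0.0309% of 25865 probes did), and 2 had an unadjusted p under 0.05, as did 15.1% of all probes. In muscle endothelium 0 of 6 passed (0.288% of 25682 probes), and 3 had an unadjusted p under 0.05, as did 16.4% of all probes. Within 1 strain 0 chains passed in either tissue, with 0.00% of all probes passing in WT and KO aorta and in WT muscle and 0.00389% in KO muscle. The methods' test on the ratios of a strain called 0 chains after adjustment in each strain and tissue.

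Lamb1 had the same sign in every pair. In WT muscle endothelium its level in experiments 1, 2 and 3 was 0.83, 0.47 and 1.80 on chow against 2.76, 2.44 and 2.64 on HFD. In KO muscle endothelium it was 0.71, 1.50 and 2.04 against 2.49, 1.92 and 3.57. The WT groups did not overlap, and the KO groups overlapped by 1 array each, since KO HFD of experiment 2 lay below KO chow of experiment 3. The share of all probes that separated the diets like the WT groups was not counted. The WT pairs differed by 1.93, 1.97 and 0.84, the KO pairs by 1.77, 0.42 and 1.54. The mean over both strains was 1.41 ± 0.25 (SE, limma), or 2.66-fold, with a 95% interval from 0.82 to 2.01 and an adjusted p = 0.0984. With the slide as the block in place of strain and experiment, the adjusted p was 0.0418, so the call depends on that choice.

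In WT aortic endothelium Lamb1 was 0.95, 1.07 and 1.26 on chow against 1.56, 1.88 and 2.75 on HFD, and with KO labels it was 1.77, 1.41 and 1.65 against 2.05, 2.01 and 2.50. Every HFD array lay above every chow array of its strain. The share of all probes with this pattern was not counted. The mean of HFD minus chow was 0.77 ± 0.20 (SE), with an interval from 0.29 to 1.25 and an adjusted p = 0.208. The difference between the aortic and the muscle response was -0.64 ± 0.32 (SE), adjusted p = 0.586.

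The chains Lama3, Lama4 and Lama2 each had an unadjusted p under 0.05 in 1 tissue. In muscle endothelium Lama3 on its brighter probe was below its chow partner in 6 of 6 pairs, by a mean of -1.06 ± 0.31 (SE, adjusted p = 0.184), but its second probe gave 0.15, with 4 of 6 pairs above 0. Lama4 was above chow in 6 of 6 muscle pairs, by 0.50 ± 0.18 (adjusted p = 0.258), and its second brightest probe gave 0.49, also in 6 of 6 pairs, while its dimmest probe gave 0.14 with 3 of 6 pairs above 0. In aorta Lama2 was above chow in 5 of 6 pairs, with a mean of 1.33 ± 0.55 (adjusted p = 0.33). The pairs spread from -0.10 to 3.93, and the highest came from the KO chow array of experiment 1 that stood at -5.38. Without experiment 1 the mean was 0.89.

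Lama5 in aorta was below chow in experiments 1 and 2 and above it in experiment 3, in both strains. The WT pairs differed by -1.49, -0.97 and 1.10, the KO pairs by -2.03, -0.92 and 0.50, with a mean of -0.63 ± 0.45 (SE), adjusted p = 0.53. The summed level of the endothelial list differed by -0.66, -0.62 and 0.57 in WT and -1.48, -0.55 and -0.05 in KO between the same arrays, and its part in the Lama5 values was not tested. In muscle Lama5 differed by -0.12 ± 0.15 (SE), with an interval from -0.47 to 0.24, so that a change of up to 1.39-fold lies within it. The genes whose pattern over the 24 arrays was most like that of Lama5 were Caskin2, Thsd1 and Arap3 (Pearson r = 0.98 for each, among 11520 genes), over arrays that fall into 2 tissues and share 3 experiments. For Lama4 they were Map3k14 (0.87), Dchs1 (0.85) and Ncoa3 (0.85), and for Lamb1 Gbp6 (0.82), Nr1d2 (0.81) and Utp20 (0.78).

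**Figure D3:**
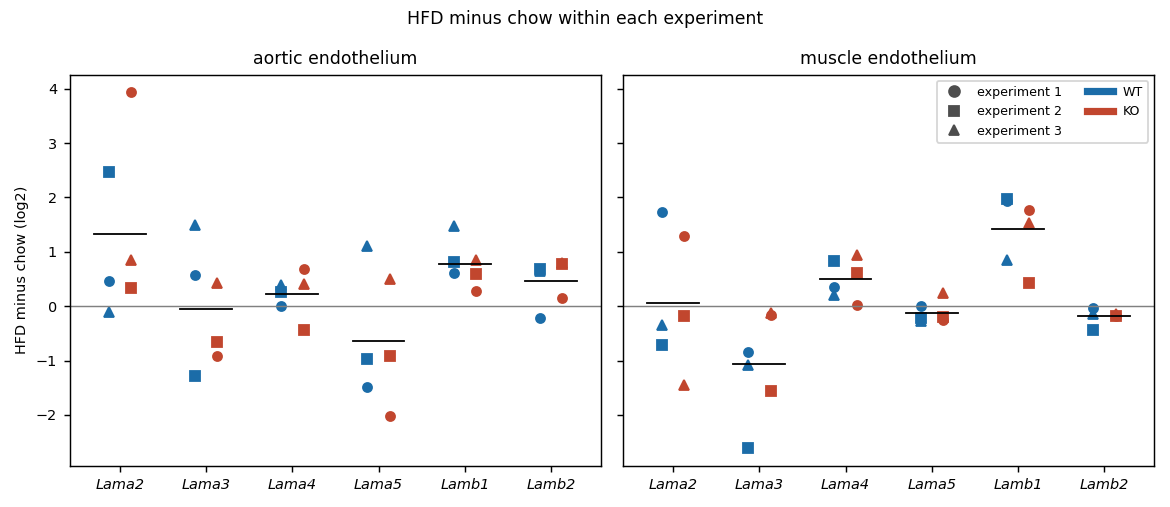
HFD minus chow (log2) within each experiment for 6 laminin chains in aortic and muscle endothelium, WT in blue and KO in red, symbols for the 3 experiments and bars for the mean of 6 pairs. Lamb1 lay above 0 in all pairs of both tissues, Lamb2 above 0 in 5 aortic pairs and below 0 in all 6 muscle pairs, and aortic Lama5 was above 0 in experiment 3 only.

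The mean diet value of Lamb2 had opposite signs in the 2 tissues. In aorta the WT pairs differed by -0.22, 0.69 and 0.64 and the KO pairs by 0.15, 0.78 and 0.80, with a mean of 0.47 ± 0.21 (SE, adjusted p = 0.354). In muscle the WT pairs differed by -0.04, -0.45 and -0.14, the KO pairs by -0.17, -0.19 and -0.15, with a mean of -0.19 ± 0.14 (adjusted p = 0.542). The difference between the tissues was 0.66 ± 0.24 (SE), 1.58-fold, with an adjusted p = 0.424, so it did not pass. No chain differed in its diet response between the tissues at an adjusted p under 0.05 (0 of 7, with 0.00% of all probes passing), and 1 had an unadjusted p under 0.05, as did 9.24% of all probes.

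Marker lists of other cells moved with diet on the same arrays. In aorta the adipocyte list was lower on HFD in 6 of 6 pairs, by a mean of -3.92 ± 1.07 (SD), its summed level lying between 6.20 and 8.01 on chow and between 1.70 and 3.61 on HFD, with 5 of 6 genes well above background on every array and Lep not. Fibroblast and pericyte lists were higher on HFD in 6 of 6 aortic pairs, by 0.36 ± 0.33 and 0.52 ± 0.40, and the endothelial list was lower in 5 of 6, by -0.47 ± 0.68. In muscle the pericyte list was lower in 6 of 6 pairs, by -0.51 ± 0.31, the fibroblast list differed by 0.85 ± 0.94, the adipocyte list by -1.99 ± 1.57 and the endothelial list by 0.09 ± 0.14. Their part in the values of Lamb1, Lamb2 and the other chains was not tested.

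Among the partners, 1 gene passed for diet. Col15a1, a collagen of the outer basement membrane, rose by 2.50 ± 0.16 (SE, adjusted p = 0.0159) in muscle endothelium. It was the only one called of 11 partners tested there, where 0.288% of all probes passed. In aorta its value was 2.38 ± 0.46 with an adjusted p = 0.14. With any experiment left out, no probe was called for diet in muscle, Col15a1 included. Of 12 laminin receptors 0 passed in either tissue, with 2 in aorta and 3 in muscle at an unadjusted p under 0.05, against 15.1% and 16.4% of all probes. Of the cytoskeletal complex 0 of 9 passed in aorta and 0 of 8 in muscle, with 2 and 0 at an unadjusted p under 0.05. The median of HFD minus chow over the basement membrane partners was 0.37 in aorta and 0.44 in muscle, against medians of 0.01 and -0.01 over all probes. This list had been chosen with earlier results of these data known.

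The study asked whether the strains respond differently to HFD. The difference between the responses, KO minus WT, passed for 0 of 7 chains in aorta and 0 of 6 in muscle in limma (0.00% of all probes in both), and 0 chains had an unadjusted p under 0.05, against 2.62% of all probes in aorta and 4.12% in muscle. For Lamb1 the difference was -0.39 ± 0.40 (SE) in aorta, with an interval from -1.35 to 0.57, and -0.34 ± 0.50 in muscle, with an interval from -1.53 to 0.86. These intervals still hold a 2.55-fold and a 2.89-fold difference, so that equal responses were not shown. Aortic Lamb3 had the largest value, -2.49 ± 1.12 (SE, adjusted p = 1), but only 1 of 3 WT chow arrays and 1 of 3 KO HFD arrays read it above background. The exact permutation test of 3 against 3 ratios, which cannot go below p = 0.1, gave p between 0.3 and 1 for the 7 chains in aorta and between 0.3 and 1 for the 6 in muscle.

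The strains were then compared over both diets. In aorta 0 of 7 passed (0.0116% of all probes did) and in muscle 0 of 6 (0.00%), and 0 chains had an unadjusted p under 0.05, against 3.39% and 3.27% of all probes. KO minus WT ran from -0.43 (Lama2) to 0.74 (Lama3) in aorta and from -0.29 (Lamb2) to 0.21 (Lamb1) in muscle. In the aorta all 6 KO-labelled arrays exceeded their WT partners for Lamb2, by 0.28 ± 0.20 (SE), with an interval from -0.16 to 0.73, while 5 of 6 muscle pairs had the opposite sign. With the experiment as the block, the Lamb2 interval ran from -0.14 to 0.70 in aorta and from -0.56 to -0.01 in muscle (adjusted p = 0.966 and 0.872), and muscle Lamb2 was then the only chain with an unadjusted p under 0.05 in either tissue, as had 5.62% of all probes in muscle. Without experiment 1 the aortic values ran from -0.34 (Lama4) to 0.90 (Lamb3) and the muscle values from -0.22 (Lamb2) to 0.57 (Lama2), and again 0 chains passed.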

How the data were processed

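The authors deposited the Feature Extraction output of 24 one-colour arrays (version 9.1 per the labels, 10.5.1.1 per the file headers), with processed intensity after background subtraction, and a table of log2 values made by the authors from it. Each intensity was divided by the 75th percentile of the 43379 non-control spots of its array and put on the log2 scale. Outlier spots were left out and spots averaged over 41174 probes. A probe was well above background where at least 0.5 of its spots were, and it was tested where that held on every array of 1 group. Of several probes the brightest was used. The slides, 6 of 4 arrays, each held the 4 groups of 1 tissue and experiment, and experiment 1 was scanned apart from experiments 2 and 3. Array number limits the precision, since no read depth applies.

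Tests were limma 3.58.1 (R 4.3.3) with Benjamini-Hochberg adjustment over all probes tested, called under 0.05. The tissues were compared over 8 group means, HFD and chow with a block for strain and experiment in each tissue, and the strains over 4 group means in each tissue. The experiment number of the labels pairs the arrays, since each number is 1 independent experiment. Deviations of HFD and chow arrays of 1 strain correlated at 0.00246 to 0.51 in aorta and 0.04 to 0.54 in muscle, and those of aorta and muscle of the same mice at 0.14 to 0.54. WT and KO arrays of 1 experiment correlated at -0.06 to 0.76 in aorta and 0.09 to 0.61 in muscle, over 0.1 in 9 and 11 of 12 pairs, and the strain fit leaves this out. The tissue fit also leaves out the ties between arrays of 1 experiment, of 1 slide and of the same mice. Each slide held 1 tissue, so a difference between the tissues is also a difference between slides. The main p values between the tissues can therefore be too small. Within a group, the arrays of experiments 2 and 3 also shared a scan session. The p values measure the spread between pools, or between pairs of pools for diet, with 3 per group, joined over the groups of a fit. The scripts were tested on simulated data. Alternatives were normexp background correction (offset 50, on median signals), quantile normalization, the deposited table, other filters, other blocks, other probes, the methods' test on the ratios and left-out arrays. The comparison of diet responses between tissues, the blocked strain values of single chains, the raised muscle signals and the values within strain, diet and experiment were chosen after seeing the data. The chains, partner lists and marker lists were chosen with earlier results of these data known. Named genes are the chains, Lgals3, up to 4 called genes per partner list by size of change and the 3 genes most like Lama4, Lama5 and Lamb1. Intervals are 95%. Some genes these rules name are not reported here.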

Additional observations from a re-analysis of the deposited data

Results flagged for a closer look

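Lamb2 stood out because every KO pair moved one way in aorta and the other way in muscle. HFD minus chow was 0.58 on average over the 3 aortic pairs and -0.17 over the 3 muscle pairs, a difference of 0.74 (log2) with a limma adjusted p = 0.735, so the difference did not pass. In WT the first aortic pair was below 0.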

How the results depend on the processing

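Between the tissues, the number of chains called stayed at 5 with normexp, quantile normalization, the deposited table, no filter, the replicate block of the same mice and the slide as a random block, and with each experiment or single array left out it was 5 throughout. Lamb3 is 1 of these 5 and entered the main test through aortic WT HFD alone. The number called was 3 where only probes well above background on every array were kept, because Lama2 and Lamb3 then leave the test and 5 chains remain. Slide as a random block called 7715 probes in place of 12630. The main p values between the tissues leave the slide out and can therefore be too small. Lamb3 was 0.77 under normexp against 2.22, and the second Lama3 probe gave -0.44. Lamb2 changed sign around 0 with experiments or arrays left out, and its values then ran from -0.012 to 0.083.

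For diet in muscle over both strains, 1 chain (Lamb1) was called with normexp (adjusted p = 0.0384), with only probes well above background on every array (0.0391) and with the slide as the replicate block (0.0418), and 0 with no replicate block (0.138) and with an experiment left out. The value of Lamb1 lay between 1.19 and 1.52 over these settings. All probes called there numbered 74, against 228, 247 and 274 in those 3 settings and 1 with no filter, and 0 with any experiment left out. In aorta 8 probes were called, against 55, 41 and 57 in the same 3 settings, 50 with no replicate block, 5 with no filter and 0 with any experiment left out. The second Lama3 probe gave 0.15 for diet in muscle. Aortic Lama3 ran from -0.57 to 0.40 and muscle Lama2 from -0.67 to 0.53 with experiments left out. No other count of chains changed. Within 1 strain, calls over all probes reached 4 in WT aorta, 7 in KO aorta and 29 in WT muscle, each against 0, and ran from 0 to 5 in KO muscle against 1. Over the strains, aortic calls over all probes ran from 0 to 18 and muscle calls from 0 to 8 in all settings, against 3 and 0. The cause of these shifts was not tested. Dim probes limit Lama1, Lamb3 and muscle Lama2.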

Other observations

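The dimmer Lamc3 probe, whose gene is a gamma chain outside the family list, was above chow in 6 of 6 aortic pairs, by a measured 2.15 ± 0.41 (log2, SE, limma, adjusted p = 0.133), the pairs running from 0.48 to 4.08. It was well above background on 9 aortic arrays and on 0 muscle arrays. In aorta these were 3 of 3 arrays in each HFD group, but 2 in WT chow and 1 in KO chow. The probe thus entered the diet test only through the groups in which it was high. The other chow arrays read background, so no size of change can be given. The brighter Lamc3 probe gave -0.16 ± 0.22 in the same comparison. The gene was named after its values had been seen.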
